A study of Homo sapiens with 22 samples.

Results

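The genes described here are the core of the Notch pathway in 2 human neuroblastoma cell lines: the receptors NOTCH1, NOTCH2 and NOTCH3, the ligands JAG1, JAG2, DLL1 and DLL3, and the target genes HES1, HEY1 and HEY2. They were taken by gene symbol, 10 of the 35237 genes in the count table, and followed through all 6 groups of a study that treated SK-N-AS and GIMEN cells with the kinase inhibitor PP121 and the cardiac glycoside bufalin to differentiate them. RNA was sequenced from 22 samples. In SK-N-AS the main receptor gene changed over the treatment: NOTCH3 fell from a mean of 174 to 9.06 CPM (counts scaled to library size) while NOTCH2 rose from 5.65 to 204. DLL3 fell, JAG1 and JAG2 rose, and HES1 first fell and then rose above its untreated level. GIMEN held JAG1 as its main ligand and raised it further, with NOTCH1, NOTCH2, NOTCH3 and HES1 at or close to no counts.

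Both lines carry the label MES, the usual short form for the mesenchymal state of neuroblastoma. Untreated SK-N-AS cells (Naive in the labels) grew in DMEM with 10% fetal bovine serum (n = 4). For S1D4, stage 1, they received 5 µM PP121 in DMEM with the serum lowered to 1%, over 4 days (n = 4). Stage 2 took S1D4 cells on into Neurobasal medium with B27, a supplement for neurons, and 5 µM PP121 together with 100 nM bufalin, over 4 days (S2D4, n = 4) or 30 days (S2D30, n = 4). Untreated GIMEN cells grew in RPMI with 10% serum (n = 3), and GIMEN D30 cells received 2.5 µM PP121 and 10 nM bufalin in RPMI with 1% serum over 30 days (n = 3). All media held i-Glutamax, at a lower strength in stage 2, and the labels list P/S for all groups except the 2 of stage 2. Stage 1 and the GIMEN treatment changed drug, serum and time together. The step into stage 2 added bufalin, changed the medium and added the days of stage 2. The parts of each in those changes cannot be told apart. S2D4 and S2D30 had the same drugs and medium and differ by label in the days of stage 2. No group with vehicle or changed medium alone was analysed here. Each line stands for 1 tumour's cells, and the labels do not say whether replicates were separate cultures, so p-values measure the spread between these samples.

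Notch receptors are cut in successive steps after they meet a ligand on a neighbouring cell, and the freed part of the receptor enters the nucleus. There it joins the DNA-binding protein RBPJ and a MAML coactivator and switches on genes of the HES and HEY families, which are themselves repressors. In the developing nervous system HES1 holds cells in a progenitor state and away from neuronal differentiation, and in neuroblastoma lines NOTCH3 and MAML2 are known for driving cells toward the mesenchymal state. JAG1, JAG2 and DLL1 activate receptors on the next cell, whereas DLL3 stays largely inside the cell and acts as an inhibitor.

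Promoters of target genes were searched for the motif of RBPJ. The windows below are 250 bases upstream of the start site from RefSeq on GRCh38.p14, written on the gene's strand, and are shown because they hold TGGGAA, the core of the site that RBPJ recognises, which is in capitals (TTCCCA where it lies on the other strand). HES1, HES4 and HEYL are target genes that stood above their untreated levels in S2D30, and HEY2 is the member with a match but next to no counts.
HES1 (chr3:194135898-194136147, plus strand): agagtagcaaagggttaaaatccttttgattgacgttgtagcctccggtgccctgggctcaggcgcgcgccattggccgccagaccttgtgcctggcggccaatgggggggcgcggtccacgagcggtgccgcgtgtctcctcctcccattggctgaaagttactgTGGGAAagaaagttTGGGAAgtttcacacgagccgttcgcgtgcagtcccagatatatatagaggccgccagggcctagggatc
HES4 (chr1:1000098-1000347, minus strand): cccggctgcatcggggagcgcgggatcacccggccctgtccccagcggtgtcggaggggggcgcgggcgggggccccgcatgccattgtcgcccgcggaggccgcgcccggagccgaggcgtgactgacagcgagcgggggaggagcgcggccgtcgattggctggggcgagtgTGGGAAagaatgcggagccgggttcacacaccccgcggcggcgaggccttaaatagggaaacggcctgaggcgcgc
HEYL (chr1:39639644-39639893, minus strand): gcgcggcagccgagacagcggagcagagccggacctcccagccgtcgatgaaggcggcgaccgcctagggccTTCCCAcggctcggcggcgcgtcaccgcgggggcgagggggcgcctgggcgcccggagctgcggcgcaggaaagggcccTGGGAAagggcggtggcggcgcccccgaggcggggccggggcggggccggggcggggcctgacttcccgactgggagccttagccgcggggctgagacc
HEY2 (chr6:125749382-125749631, plus strand): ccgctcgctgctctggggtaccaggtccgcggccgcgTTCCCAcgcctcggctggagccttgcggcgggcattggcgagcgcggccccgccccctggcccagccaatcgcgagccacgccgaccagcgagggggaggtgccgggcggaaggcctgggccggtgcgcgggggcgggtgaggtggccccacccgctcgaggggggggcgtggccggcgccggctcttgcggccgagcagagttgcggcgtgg
In the HES1 window TGGGAA began 84 and 70 bases before the start, in HES4 76 bases, in HEYL 178 (other strand) and 99 bases, and in HEY2 213 bases (other strand). The extended form CGTGGGAA occurred in HEYL and HEY2. No other extended form was searched. In the printed windows the letters tg stand directly before the TGGGAA of HES4 and the 84-base TGGGAA of HES1. The share of all windows with TGTGGGAA was not counted. Of all 35116 RefSeq promoter windows of this length, 20.8% held TGGGAA on either strand, 2.9% held it at least 2 times and 0.72% held CGTGGGAA, which contains TGGGAA. Of the 10 members, 7 had a window that was searched, while HEY1, DLL1 and DLL3 were left out, so their motifs are not known here. The windows of NOTCH1, NOTCH2, NOTCH3, JAG1 and JAG2 held no TGGGAA. With the other pathway genes searched, 4 of 14 windows held it, and those of NRARP and HES7, which also stood above their untreated levels in S2D30, and of NOTCH4, DLL4 and HES6 did not. A match describes these letters only, since no binding was measured.

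Libraries held 16456484 to 37506800 counts. SK-N-AS S2D4 replicate 4 stood apart. Over log2 CPM of the 16610 genes passing a filter on low counts, its correlation with the other S2D4 libraries was 0.9673 to 0.969. Each of those libraries had a highest correlation of 0.99 or 0.9901 within S2D4. Correlations were 0.9771 to 0.9903 among untreated SK-N-AS libraries and 0.9884 to 0.9915 among S2D30 libraries. Several member genes differed in S2D4 replicate 4, and several results are given with and without it. All 12 listed mesenchymal markers reached 1 CPM in every group, with summed levels of 992 to 1530 CPM in untreated SK-N-AS and 3480 to 4160 CPM in S2D30. There VIM went from a mean of 937 to 2860 CPM and CD44 from 8.77 to 208 CPM, while FN1 went from 60.3 to 1.89 CPM. The same markers summed to 38400 to 40000 CPM in untreated GIMEN, of which FN1 was 31500 CPM, and to 21200 to 24200 CPM in GIMEN D30. HAND2, a marker of the adrenergic state, the sympathetic neuron-like counterpart, was also present in untreated SK-N-AS and lower in S2D30, with means of 578 ± 19.4 and 143 ± 18.6 CPM (SD, n = 4). The 6 white blood cell markers summed to 170 to 216 CPM in untreated SK-N-AS and to 99.5 to 151 CPM in S2D30. Within that list PTPRC went from a mean of 177 to 0.85 CPM, CD68 from 13.2 to 123 CPM and CD14 from 1.34 to 3.09 CPM, with CD3E at 0 counts in every SK-N-AS library. The 7 Schwann and glial markers summed to at most 9.76 CPM in any SK-N-AS library. In GIMEN, HAND2 averaged 363 ± 10.2 CPM untreated (SD, n = 3), while HAND1, TH and DDC were at 0 counts in both groups. The part of these markers in the Notch results was not tested.

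Genes were tested with edgeR's quasi-likelihood test over all genes, and a gene is called where the p-value adjusted by Benjamini and Hochberg is under 0.05. HEY2 never exceeded 3 counts in a library and was not tested, which left 9 members in SK-N-AS. In S1D4 against untreated cells, 2 members rose and 2 fell, where 40.1% of all 15810 genes tested were called, 17.6% higher and 22.4% lower. In S2D4 against untreated cells, 5 rose and 2 fell (63.1% of all genes called, 30.9% higher and 32.2% lower), and in S2D30 6 rose and 2 fell (70.3% called, 33.8% higher and 36.5% lower). From S1D4 to S2D4, 5 rose and 2 fell (55.1% called, 28.3% higher and 26.8% lower), and from S2D4 to S2D30, 3 rose and 1 fell (51.3% called, 24.4% higher and 26.9% lower). Groups were free of overlap between libraries in 5 members in S1D4 against untreated cells (38.3% of all genes tested), 7 in S2D4 (51.2%) and 8 in S2D30 (66.4%). The same held for 6 members from S1D4 to S2D4 (49.5%) and 3 from S2D4 to S2D30 (50.3%). The members' median log2 fold change was 0.09 in S1D4, 1.71 in S2D4 and 2.59 in S2D30, with -0.01, -0.02 and -0.03 over all genes tested. These 3 comparisons share the untreated libraries. A lower value in bulk RNA cannot tell fewer expressing cells from less RNA per cell.

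**Figure D1:**
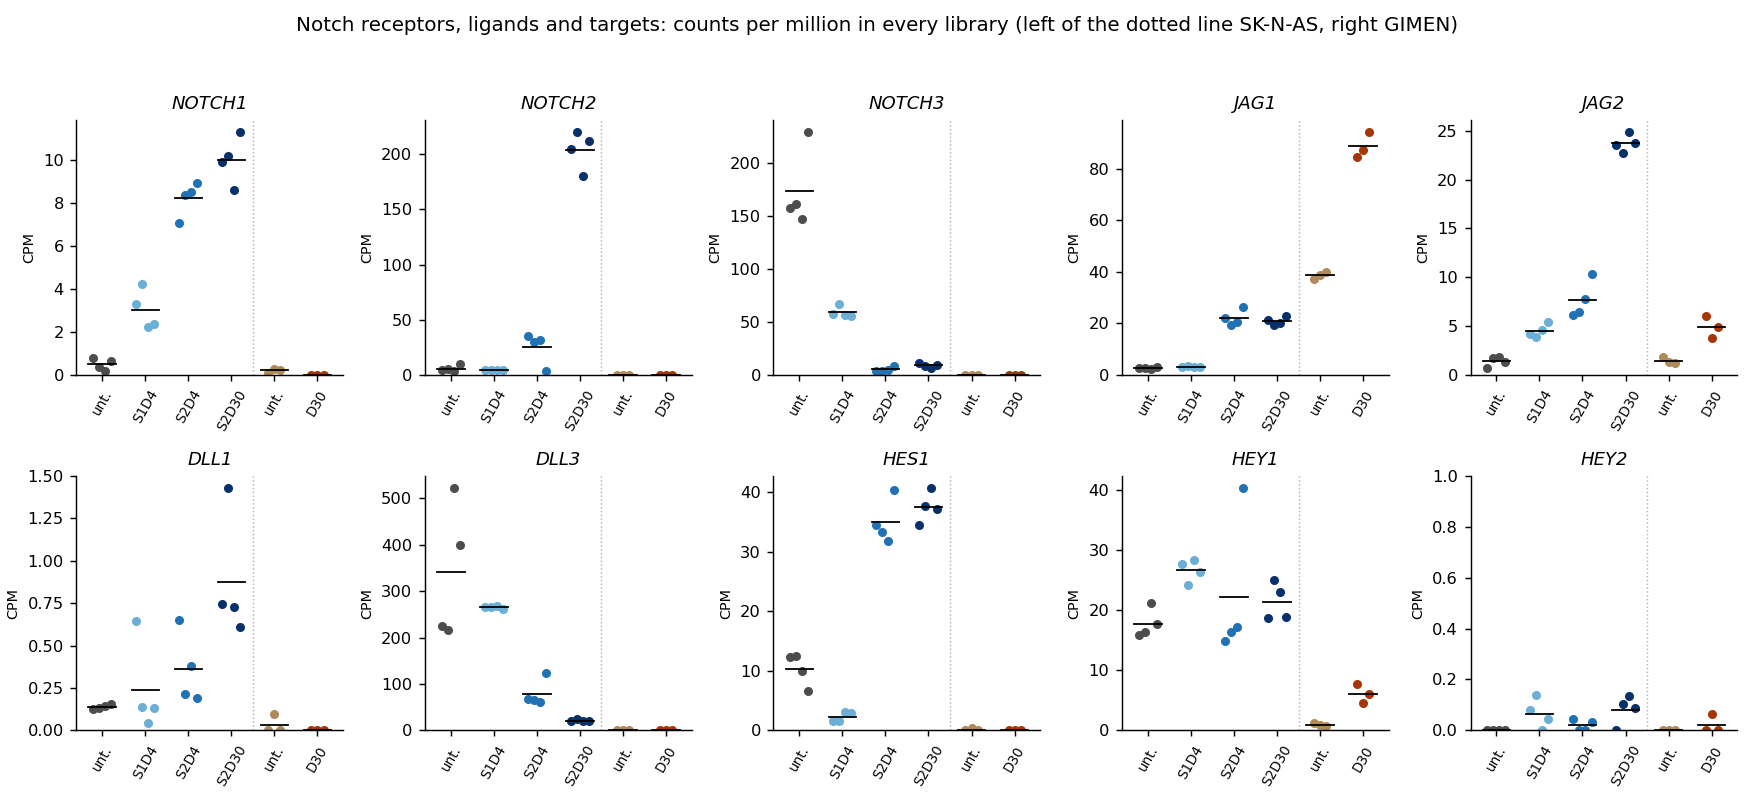
Each panel plots 1 gene, with CPM on a linear axis from 0 (its own scale in each panel), a point for each library and a black bar at the group mean; groups run from untreated SK-N-AS through S1D4, S2D4 and S2D30 to untreated and D30 GIMEN. NOTCH3 and DLL3 start high in SK-N-AS and fall, NOTCH2 reaches 180 to 220 CPM in S2D30, and HES1 dips in S1D4 before it reaches 31.7 to 40.7 CPM in stage 2.

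NOTCH3 was the main receptor of untreated SK-N-AS and fell in both stages. It stood at 157, 161, 147 and 229 CPM in the untreated libraries, at 57.5, 66.7, 56.3 and 55.9 CPM in S1D4, at 3.91, 3.64, 4.66 and 8.43 CPM in S2D4, and at 11.7, 8.7, 6.57 and 9.25 CPM in S2D30. Every treated library lay below every untreated library, and S2D4 below S1D4, without overlap. NOTCH3 fell by 1.58 on the log2 scale in S1D4 (SE 0.211, adjusted p = 2.2e-05, edgeR), and from S1D4 to S2D4 it fell by a further 3.5 (SE 0.238, adjusted p = 6.38e-09). Its lowest level was in S2D4, with a log2 fold change of -5.08 against untreated cells (SE 0.251, adjusted p = 6.88e-11). From S2D4 to S2D30 it rose by 0.79 (SE 0.234, adjusted p = 0.01), although the libraries of the groups overlapped. S2D4 replicate 4 was the highest of its group at 8.43 CPM, and without it this rise was 1.15 (adjusted p = 0.000119).

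NOTCH2, a receptor with the same overall structure, moved the opposite way and late. Its levels were 4.18, 4.98, 3.67 and 9.77 CPM in untreated SK-N-AS, 4.86, 4.43, 4.6 and 4.43 CPM in S1D4, 35.1, 29.8, 31.7 and 3.79 CPM in S2D4, and 205, 220, 180 and 212 CPM in S2D30. Stage 1 left it within the untreated range (log2 fold change -0.34, adjusted p = 0.612, or 0.07 without untreated replicate 4). In S2D4, 3 libraries lay above all untreated libraries while replicate 4, at 3.79 CPM, lay below all S1D4 libraries and within the untreated range. The rise against untreated cells was 2.1 on the log2 scale (SE 0.451, adjusted p = 0.000678) and 2.46 without replicate 4 (adjusted p = 2.97e-08). Between days 4 and 30 of stage 2, NOTCH2 rose by 3.03 (SE 0.443, adjusted p = 2.81e-05), or 2.66 without replicate 4, and in S2D30 it stood 5.13 log2 units above untreated cells (SE 0.495, adjusted p = 8.71e-08).

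NOTCH2 has close copies in the genome, and 20% of its 75-base words in the GENCODE 29 transcripts also occur in genes such as NOTCH2NLA and NBPF14. How the authors' counting treated reads that fit several genes is not given in the sources used here, so part of this count is uncertain. The separate row NOTCH2NL, a human-specific partial copy of NOTCH2 that carries only its first repeats, held 2.05, 1.79, 1.38 and 4.55 CPM in untreated SK-N-AS and 21.9, 20, 22.3 and 18.9 CPM in S2D30, a log2 fold change of 3.03 (SE 0.308, adjusted p = 1.62e-07). In GIMEN, where NOTCH2 had 0 to 4 counts a library, NOTCH2NL held 2.37, 1.52 and 1.13 CPM untreated and 6.93, 4.44 and 5.27 CPM at D30, so that this row had counts where the NOTCH2 row had almost none.

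NOTCH1, the receptor best known from T cell development, rose from a very low start at every step until day 4 of stage 2. Untreated libraries held 0.791, 0.35, 0.191 and 0.641 CPM, S1D4 libraries 3.29, 4.24, 2.24 and 2.39 CPM, S2D4 libraries 7.08, 8.36, 8.52 and 8.94 CPM, and S2D30 libraries 9.92, 10.2, 8.61 and 11.3 CPM. No library of S1D4 overlapped with untreated cells, nor any of S2D4 with S1D4, whereas S2D4 and S2D30 overlapped. The log2 fold change was 2.5 in S1D4 (SE 0.299, adjusted p = 8.13e-06), 1.43 from S1D4 to S2D4 (SE 0.257, adjusted p = 0.00019) and 0.28 from S2D4 to S2D30 (SE 0.245, adjusted p = 0.357).

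Per unit of transcript length the receptors changed places. Levels were divided by the exon length of each gene in GENCODE 29 and expressed as a share of the 4 receptors, NOTCH4 included. NOTCH3 made up 97% ± 0.267 (SD, n = 4) of the receptor level per kb before treatment and 86.6% ± 0.873 after stage 1. Its share was 18.3% ± 12.8 at day 4 of stage 2 and 6.74% ± 1.28 at day 30. NOTCH2 made up 1.7% ± 0.428, 3.78% ± 0.369, 41.8% ± 21.8 and 85.4% ± 1.24 in the same order. S2D4 was the most mixed group, with NOTCH1 at 24.9% ± 7.64 and NOTCH4 at 15.1% ± 1.85, and it also had the widest spread between libraries, NOTCH2 ranging from 9.41% to 57.1%. The lowest of these values belongs to replicate 4, the library with 3.79 CPM of NOTCH2.

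**Figure D2:**
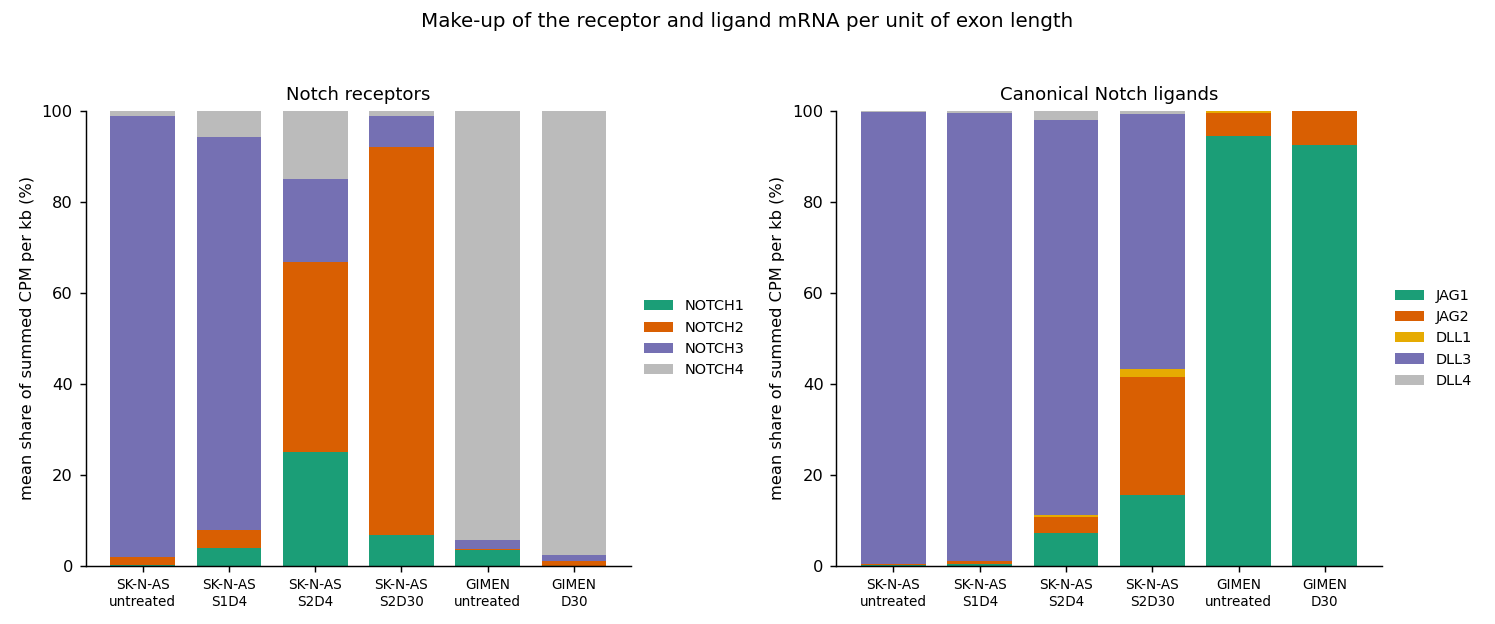
Stacked bars give the mean share of each gene in the summed CPM per kb of exon length, in percent, for the 4 receptors on the left and for 5 ligands on the right, in each of the 6 groups. In SK-N-AS the receptor bar passes from NOTCH3 (97%) to NOTCH2 (85.4%), and the ligand bar from DLL3 alone (99.3%) to DLL3, JAG2 and JAG1; GIMEN bars are almost all NOTCH4 and JAG1.

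JAG1, a ligand of the Jagged family, rose in a single step when stage 2 began. It stood at 2.87, 2.75, 2.48 and 3.05 CPM in untreated SK-N-AS and at 2.97, 3.3, 2.91 and 2.97 CPM in S1D4. It then stood at 21.9, 19.5, 20.6 and 26.3 CPM in S2D4 and at 21.2, 19.2, 20.1 and 23 CPM in S2D30. Untreated and S1D4 libraries overlapped, as did the day 4 and day 30 libraries of stage 2, and the step between these pairs was free of overlap. From S1D4 to S2D4 JAG1 rose by 2.85 on the log2 scale (SE 0.122, adjusted p = 6.19e-11), while the change was 0.09 in S1D4 (SE 0.124, adjusted p = 0.641) and -0.08 from S2D4 to S2D30 (SE 0.109, adjusted p = 0.544), or 0.01 without S2D4 replicate 4.

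JAG2, its close relative, rose at all 3 steps. Its levels were 0.742, 1.75, 1.86 and 1.37 CPM in untreated SK-N-AS, 4.18, 3.86, 4.64 and 5.45 CPM in S1D4, 6.1, 6.46, 7.77 and 10.3 CPM in S2D4 and 23.5, 22.7, 24.9 and 23.8 CPM in S2D30. Each group lay wholly above the group before it. The log2 fold change was 1.68 in S1D4 (SE 0.239, adjusted p = 4.23e-05), 0.75 from S1D4 to S2D4 (SE 0.218, adjusted p = 0.00773) and 1.62 from S2D4 to S2D30 (SE 0.213, adjusted p = 9.45e-06). Without S2D4 replicate 4, the highest of its group, the rise from S1D4 to S2D4 was 0.57 (adjusted p = 0.0225, edgeR). A transcript of another gene on the same strand, AL512356.1 in GENCODE 29, covers 7.33% of the JAG2 exon length, and reads there could have been given to either gene.

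DLL3, the inhibitory ligand and a known marker of neuroendocrine tumours, fell in stage 2. Untreated SK-N-AS libraries held 225, 217, 523 and 400 CPM, a wide spread, and S1D4 libraries 265, 267, 268 and 262 CPM. S2D4 libraries held 67.1, 64.6, 61.5 and 124 CPM, and S2D30 libraries 20.2, 24.4, 20 and 20.2 CPM. S1D4 lay inside the untreated range (log2 fold change -0.39, SE 0.249, adjusted p = 0.237), and each stage 2 group lay wholly below the group before it. DLL3 fell by 1.75 on the log2 scale from S1D4 to S2D4 (SE 0.257, adjusted p = 2.63e-05), or by 2.05 without S2D4 replicate 4, and by 1.91 from S2D4 to S2D30 (SE 0.264, adjusted p = 1.6e-05), or by 1.61 without it. The log2 fold change of S2D30 against untreated cells was -4.04 (SE 0.285, adjusted p = 1.8e-09).

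DLL1, an activating ligand, was scarce throughout, with 1 to 28 counts in a SK-N-AS library. Untreated libraries held 0.124 to 0.153 CPM, and S2D30 libraries 0.746, 1.43, 0.725 and 0.608 CPM, without overlap and with a log2 fold change of 2.59 (SE 0.594, adjusted p = 0.00095). In S1D4, replicate 1 had 16 counts and the other 3 libraries had 1 to 3, and the log2 fold change of 0.79 (adjusted p = 0.371) became -0.4 without replicate 1. In S2D4 the log2 fold change was 1.31 (SE 0.638, adjusted p = 0.0833), and 1.55 without S2D4 replicate 4 (adjusted p = 0.0499). The change from S2D4 to S2D30 was 1.28 (adjusted p = 0.0588), and 1.73 without S2D4 replicate 1 (adjusted p = 0.0262). From S1D4 to S2D4 it was 0.52 (adjusted p = 0.488), and 1.71 without S1D4 replicate 1 (adjusted p = 0.0234).

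Set side by side per unit of length, DLL3 made up 99.3% ± 0.163 (SD, n = 4) of the 5 ligands, DLL4 included, before treatment and 98.4% ± 0.228 after stage 1. At day 4 of stage 2 its share was 87% ± 0.883, and at day 30 it was 56.1% ± 2.66. JAG2 reached 25.8% ± 2.1 and JAG1 15.6% ± 1.72 in S2D30, while DLL1 stayed at 1.86% ± 0.683. In S2D30 the levels were 3.71 CPM per kb for JAG2 and 2.24 for JAG1 against 8.1 for DLL3. In untreated cells these levels were 0.224, 0.3 and 130 CPM per kb.

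HES1, the repressor most directly read as Notch output, whose promoter window above holds 2 TGGGAA motifs, moved down in stage 1 and up in stage 2. Its levels were 12.3, 12.5, 9.97 and 6.66 CPM in untreated SK-N-AS, 1.61, 1.51, 3.08 and 2.97 CPM in S1D4, 34.4, 33.2, 31.7 and 40.4 CPM in S2D4 and 34.5, 37.7, 40.7 and 37.1 CPM in S2D30. All S1D4 libraries lay below all untreated libraries and all stage 2 libraries above them, with day 4 and day 30 overlapping. HES1 fell by 2.2 on the log2 scale in S1D4 (SE 0.233, adjusted p = 2.53e-06) and rose by 3.92 from S1D4 to S2D4 (SE 0.24, adjusted p = 1.86e-09). Against untreated cells it was higher by 1.71 in S2D4 (SE 0.21, adjusted p = 2.37e-06) and by 1.81 in S2D30 (SE 0.21, adjusted p = 8.04e-07). In S1D4, NOTCH3 was lower as well, NOTCH1 and JAG2 were higher, and neither JAG1 nor DLL3 was called, while in stage 2 HES1 was high with NOTCH3 low and with group means of NOTCH2 and JAG1 above their untreated levels. S2D4 replicate 4 departed from this for NOTCH2, which stood at 3.79 CPM, within the untreated range, while HES1 stood at 40.4 CPM.

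HEY1, a related repressor, did not follow HES1. It stood at 15.8, 16.3, 21.2 and 17.7 CPM in untreated SK-N-AS, 27.7, 24.2, 28.3 and 26.3 CPM in S1D4, 14.9, 16.3, 17.2 and 40.4 CPM in S2D4 and 18.7, 25, 23 and 18.9 CPM in S2D30. The S1D4 libraries lay above all untreated libraries, yet the log2 fold change of 0.56 (SE 0.243) missed the threshold at an adjusted p of 0.0778; it was called with the compared groups fitted alone (0.6, adjusted p = 0.00183) and with upper-quartile scaling (0.59, adjusted p = 0.0457). S2D4 replicate 4, at 40.4 CPM, was far above the other 3 libraries. With it the step from S1D4 to S2D4 was -0.27 (SE 0.242, adjusted p = 0.37), and without it HEY1 fell by 0.73 (adjusted p = 0.000102) and then rose by 0.4 to S2D30 (adjusted p = 0.0128). Against untreated cells the log2 fold change was 0.3 in S2D4 (adjusted p = 0.3), or -0.17 without replicate 4, and 0.23 in S2D30 (adjusted p = 0.402).

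HEY2, the last member of the target group, had 0 counts in all untreated libraries of both lines and at most 3 in any library, so that no change could be detected at this depth. Its window holds both TGGGAA and CGTGGGAA, as the sequence above shows.

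**Figure D3:**
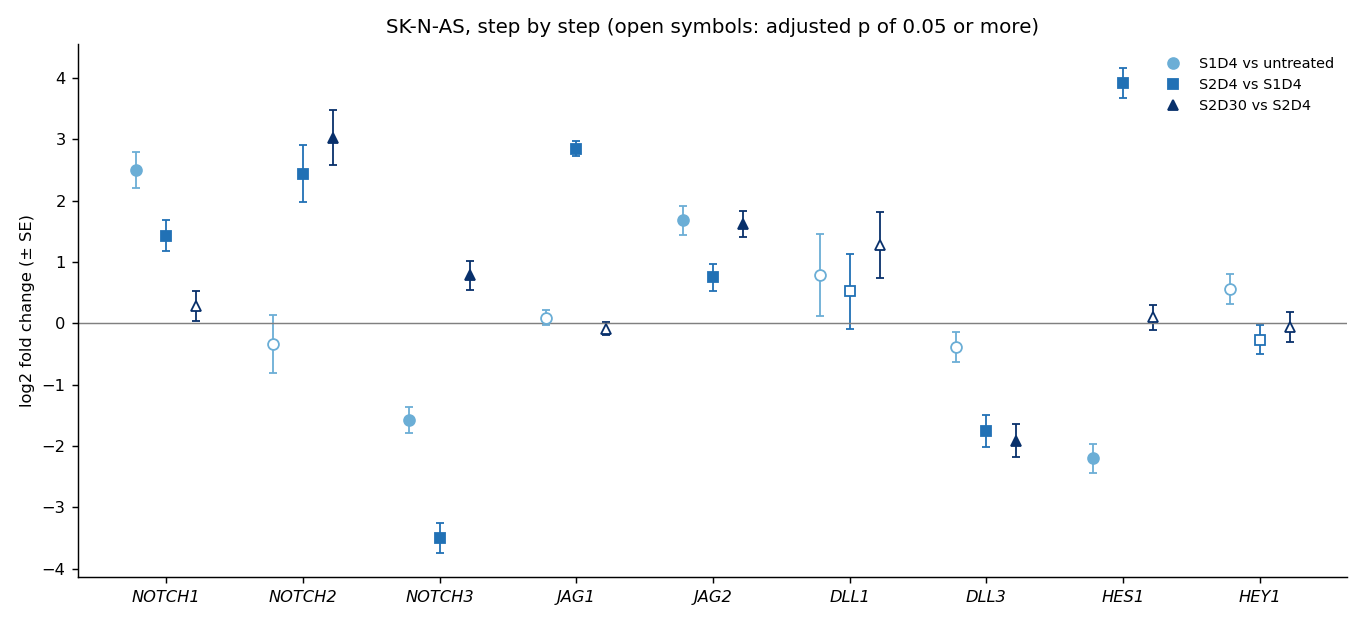
Log2 fold changes (± SE, edgeR) of the 9 members tested in SK-N-AS are plotted for 3 successive steps, with filled symbols for an adjusted p under 0.05 and open symbols otherwise. JAG1 moves at the step from S1D4 to S2D4, JAG2 at each step, and HES1 from -2.2 to 3.92 between the first 2 steps.

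The other direct targets and feedback genes of the pathway were read from a list of 51 further Notch genes, of which 49 were tested in SK-N-AS and 38 in GIMEN. HES4, a HES family repressor, held 0.191 to 0.656 CPM in untreated SK-N-AS, 0.222 to 0.612 CPM in S1D4, 1.21, 1.25, 1.46 and 7.62 CPM in S2D4 and 11.2, 17, 14.7 and 9.43 CPM in S2D30. It had the largest rise of the other pathway genes in S2D30, 5.05 on the log2 scale (SE 0.601, adjusted p = 1.11e-06), and rose by 2.91 in S2D4 (SE 0.589, adjusted p = 0.000408), or 1.74 without S2D4 replicate 4 (adjusted p = 0.000477). NRARP, a feedback inhibitor that binds the Notch complex, and HEYL, a HEY family repressor, are named after their values were seen. NRARP held 0.336 to 0.656 CPM in untreated cells and 3.63 to 6.47 CPM in S2D30 (log2 fold change 3.28, SE 0.404, adjusted p = 1.65e-06). In S2D4 its rise of 1.14 (adjusted p = 0.023) was 0.55 without replicate 4 (adjusted p = 0.194). HEYL held 2.69 to 3.82 CPM in untreated cells and 1.17 to 2.31 CPM in S1D4, where it fell by 0.97 (SE 0.237, adjusted p = 0.00364). In S2D4 it held 1.68 to 2.95 CPM, a log2 fold change of -0.62 (adjusted p = 0.0291, edgeR), or -0.82 without replicate 4 (adjusted p = 0.00546). The S2D4 call was lost in 7 of the alternatives. In S2D30 it held 4.35 to 5.56 CPM, higher by 0.62 (SE 0.227, adjusted p = 0.0212). That last call was lost without untreated replicate 4 (0.55, adjusted p = 0.0534), S2D30 replicate 3 (0.59, adjusted p = 0.0502) or S2D30 replicate 4 (0.58, adjusted p = 0.053).

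HES6 and HES7 differed in direction. HES6, which promotes neuronal differentiation and is not itself switched on by Notch, stood at 97.4 to 168 CPM in untreated SK-N-AS, 41.4 to 54.5 CPM in S1D4 and 25 to 27.8 CPM in S2D30, with a log2 fold change of -1.5 in S1D4 (SE 0.159, adjusted p = 2.53e-06) and -2.38 in S2D30 (SE 0.164, adjusted p = 1.42e-09). HES7, the oscillating repressor of somite formation, stood at 2.84 to 4.25 CPM in untreated SK-N-AS and 7.27 to 11 CPM in S2D30 (log2 fold change 1.23, SE 0.224, adjusted p = 0.000116). HES5 had 0 counts in every library. HES1, HES4, HES7, HEYL and NRARP were thus above untreated levels in S2D30, HES6 below them, and HEY1 was not called. The HEYL call hung on single libraries, as given above.

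**Figure D4:**
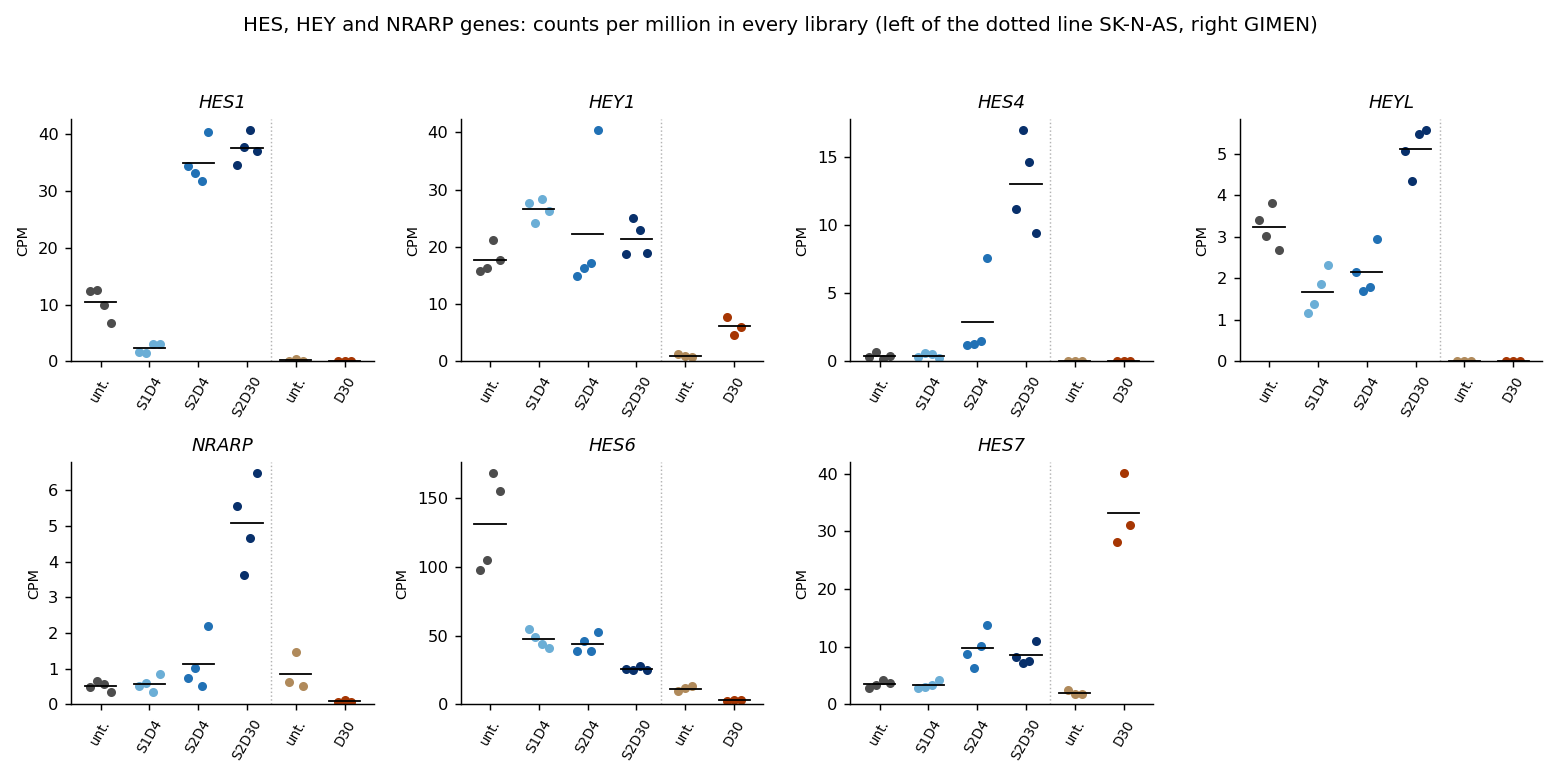
Each panel plots 1 HES, HEY or feedback gene, with CPM on a linear axis from 0 (own scale), a point per library and a bar at the group mean, for the 6 groups. HES4, HEYL and NRARP share the S2D30 rise, S2D4 replicate 4 is the highest S2D4 library in every panel, and HES7 is highest in GIMEN D30 at 28.1 to 40.1 CPM.

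Of the 51 listed genes, 12 rose and 6 fell in S1D4, 24 rose and 11 fell in S2D4, and 23 rose and 14 fell in S2D30, of 49 tested in each, with median log2 fold changes of 0.14, 0.51 and 0.31. Over all genes tested, 40.1%, 63.1% and 70.3% were called in these comparisons. The genes listed as proteases that cut the receptor, subunits of protease complexes included, moved mostly 1 way. Of 9, 8 rose in S2D30 and 1 fell, APH1A, from a mean of 332 CPM untreated to 216 CPM in S2D30. Of all genes tested, 33.8% were called higher there and 36.5% lower. FURIN, which cuts the maturing receptor, had the largest rise among them (log2 fold change 1.36, adjusted p = 4.51e-09). Of 7 genes of the nuclear complex, 4 rose and 1 fell in S2D30. MAML2, the scarcest of the listed MAML coactivators in untreated cells, held 1.57 to 2.7 CPM there, 10.3 to 14.9 CPM in S2D4 and 12.5 to 16.5 CPM in S2D30. Its log2 fold change in S2D4 was 2.59 (SE 0.186, adjusted p = 4.87e-09). Between untreated cells and S2D30, MAML1 went from a mean of 81.7 to 96.6 CPM and MAML3 from 58.5 to 26.7 CPM. RBPJ rose by 0.74 in S2D30 (SE 0.13, adjusted p = 7.51e-05).

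Of 5 glycosyltransferases, which add sugars that tune the receptor's choice of ligand, 4 fell in S2D30, where 36.5% of all genes tested were called lower. LFNG, a Fringe enzyme, went from 11.3 to 13.2 CPM in untreated cells to 2.69 to 3.86 CPM in S2D30, a log2 fold change of -1.92 (SE 0.165, adjusted p = 2.03e-08), and it was among the largest falls in S2D4 with -1.9 (adjusted p = 4.32e-08). NEURL1B, a ubiquitin ligase for ligands, was the only pathway gene among the 2 largest falls of all 4 comparisons with untreated cells. It held 11.3 to 16.8 CPM in untreated SK-N-AS, 3.06 to 3.67 CPM in S1D4, 1.47 to 2.19 CPM in S2D4 and 0.102 to 0.227 CPM in S2D30, where it had 2 to 5 counts a library and a log2 fold change of -6.44 (adjusted p = 1.06e-12). DLK1, a non-canonical ligand that dampens Notch, had 46.2, 36.9, 9.31 and 9.01 CPM in untreated libraries and 1 to 4 counts a library in S2D30 (log2 fold change -7.77, adjusted p = 1.76e-07).

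Of 8 genes of receptor turnover, 5 rose and 2 fell in S2D30, where 70.3% of all genes tested were called, 33.8% higher and 36.5% lower. The falls were in NUMBL, a relative of NUMB, from a mean of 76.7 to 35.1 CPM (log2 fold change -1.16, adjusted p = 4.58e-07), and DTX1, from 2.23 to 0.639 CPM (-1.83, adjusted p = 1.26e-05). NUMB, an inhibitor of Notch that directs the receptor to endosomes, held 35.9 to 43.7 CPM in untreated SK-N-AS and 170 to 183 CPM in S2D30, a rise of 2.06 on the log2 scale (SE 0.0767, adjusted p = 1.06e-12). DTX4, a Deltex ubiquitin ligase, held 1.79 to 3.39 CPM in untreated cells, 4.12 to 7.91 CPM in S1D4, 1.94 to 2.55 CPM in S2D4 and 29.7 to 36.7 CPM in S2D30. It rose by 1.12 in S1D4 (adjusted p = 0.000951) and by 3.67 in S2D30 (adjusted p = 5.56e-10) and was not called in S2D4. TLE3, a corepressor that works with HES proteins, shared the down and up course of HES1: it held 41.4 to 53.6 CPM untreated, 10.2 to 17.9 CPM in S1D4, 123 to 216 CPM in S2D4 and 201 to 217 CPM in S2D30. It fell by 1.84 in S1D4 (SE 0.191, adjusted p = 2.06e-06) and rose by 3.49 from S1D4 to S2D4 (SE 0.201, adjusted p = 9.54e-10). Of the listed corepressors, 1 rose, 3 fell and 3 were not called in S2D30, beside the shares of all genes given above. TLE2 went from a mean of 30.2 CPM untreated to 2.76 CPM in S2D30, and TLE4 from 116 to 33.6 CPM. NOTCH4, the receptor outside the member list, rose by 1.08 in S1D4 (SE 0.19, adjusted p = 0.000279) and overlapped with untreated cells in S2D30 (log2 fold change -0.29, adjusted p = 0.204).

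In GIMEN, 3 members passed the filter on low counts, JAG1, JAG2 and HEY1, and all 3 rose at D30, where 71.4% of 13517 genes tested were called, 35.5% higher and 36% lower. JAG1 stood at 37.2, 38.8 and 39.8 CPM untreated and at 84.5, 87 and 94.2 CPM at D30, higher by 1.17 on the log2 scale (SE 0.0675, adjusted p = 3.58e-08). JAG2 stood at 1.81, 1.28 and 1.24 CPM and then at 6.05, 3.81 and 4.88 CPM (log2 fold change 1.74, SE 0.26, adjusted p = 9.72e-05). HEY1 stood at 1.19, 0.933 and 0.678 CPM and then at 7.69, 4.51 and 6.04 CPM (log2 fold change 2.66, SE 0.287, adjusted p = 6.57e-06). In each of these genes the D30 libraries lay above all untreated libraries, and the groups were free of overlap in 75.4% of all genes tested.

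The other 7 members were close to no counts in GIMEN. NOTCH1 had 2, 6 and 4 counts untreated and 0 in all D30 libraries, NOTCH2 had 0, 1 and 0 and then 4, 1 and 2 counts, and NOTCH3 had 3, 2 and 1 and then 3, 1 and 1 counts. HES1 had 0, 9 and 0 and then 2, 1 and 1 counts, and DLL1, DLL3 and HEY2 had at most 2 counts in any library. A receptor gene outside the members had more counts: NOTCH4, best known from endothelial cells, held 6.09, 4.81 and 5.37 CPM untreated and 6.28, 12.1 and 10.2 CPM at D30 (log2 fold change 0.78, SE 0.222, adjusted p = 0.00811), or 94.4% ± 1.98 and 97.7% ± 2.17 (SD, n = 3) of the receptors per unit of length. The 8 endothelial markers listed summed to 8.69 to 9.49 CPM in untreated GIMEN and 27.1 to 37.1 CPM at D30, of which PECAM1 was 2.8 ± 0.123 and 27.5 ± 3.16 CPM (SD, n = 3); VWF and ERG were at 0 counts untreated and CLDN5 at D30, and the part of these genes in the NOTCH4 rise was not tested. Among the 38 further pathway genes tested, 23 rose and 7 fell, where 71.4% of all genes tested were called, 35.5% higher and 36% lower. The largest rises were in HES7 (3.98, from 1.77 to 2.58 CPM up to 28.1 to 40.1 CPM, adjusted p = 6.11e-09) and NUMB (1.6, adjusted p = 3.7e-09). The largest falls were in NEURL1B (-2.34, adjusted p = 2.98e-06) and HES6 (-2, adjusted p = 1.8e-06).

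Of 9 members tested between untreated SK-N-AS and untreated GIMEN, 6 were higher in SK-N-AS and 1 lower, with 73.9% of 16246 genes called, 38.6% higher and 35.3% lower. Libraries were free of overlap in 7 members and in 71.7% of all genes. DLL3, NOTCH3 and NOTCH2 were almost without counts in GIMEN. On 6 counts in all 3 GIMEN libraries, the NOTCH3 ratio was 1690 (exact 95% counting interval 775 to 4600), and on 1 count the DLL3 ratio was 18700 (3360 to 739000). NOTCH2, also with 1 count in GIMEN, was 334 times as high in SK-N-AS (59.7 to 13200). HES1 was higher by 5.99 on the log2 scale (SE 0.465, adjusted p = 3.83e-09), with all 9 of its GIMEN counts in replicate 2. HEY1 was higher in SK-N-AS by 4.22 (SE 0.231, adjusted p = 3.65e-11) and JAG1 was lower (log2 fold change -3.79, SE 0.0997, adjusted p = 3.72e-15). JAG2 was not called (log2 fold change -0.09, adjusted p = 0.787). NOTCH1, at a log2 fold change of 1.3 (SE 0.502, adjusted p = 0.0295), lost its call without SK-N-AS replicate 1 (0.95, adjusted p = 0.102) or 4 (1.23, adjusted p = 0.0506) and without GIMEN replicate 1 (0.96, adjusted p = 0.134) or 3 (1.34, adjusted p = 0.0631). DLL1 was not called (1.81, adjusted p = 0.0789). It was called without GIMEN replicate 2 (adjusted p = 0.013), the library with its only 2 counts there, and no size is given since GIMEN is then at 0. Both lines also differ in medium, so line and medium cannot be told apart.

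After 30 days the lines remained apart. All 9 members were called between S2D30 and GIMEN D30, 8 higher in SK-N-AS and JAG1 lower, with 72% of all genes called, 38% higher and 34% lower. None of the 9 overlapped between the lines, nor did 74.4% of all genes, and the lines also differed in dose and medium. NOTCH1 was at least 53.7-fold, DLL3 at least 114-fold and DLL1 at least 4.71-fold higher in SK-N-AS, taking 3 counts in each GIMEN library as the floor. The HES1 ratio was 453 (exact 95% counting interval 177 to 1660) and the NOTCH3 ratio 87.9 (37.5 to 272). NOTCH2, at 4, 1 and 2 counts in GIMEN D30, was higher by 10.4 on the log2 scale (SE 0.407, adjusted p = 6.07e-13). JAG2 was higher by 2.23 (SE 0.22, adjusted p = 9.9e-08) and HEY1 by 1.77 (SE 0.182, adjusted p = 1.62e-07), while JAG1 was lower with a log2 fold change of -2.13 (SE 0.087, adjusted p = 1.03e-12). Counting intervals and floors cover counting error only.

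Whether the lines changed by different amounts over 30 days could be read for the 3 members that both lines express. The 30-day treatments differed in dose and medium, and only S2D30 cells had passed stage 1 before their 30 days. Line and treatment cannot be told apart in these differences. JAG1 rose more in SK-N-AS than in GIMEN, by 1.67 on the log2 scale (SE 0.132, adjusted p = 2.72e-08), and so did JAG2, by 2.31 (SE 0.354, adjusted p = 4.33e-05). HEY1 rose in GIMEN and was not called in SK-N-AS, a difference of -2.45 (SE 0.296, adjusted p = 3.58e-06). JAG1 thus rose in both lines and still ended lower in SK-N-AS, at 19.2 to 23 CPM against 84.5 to 94.2 CPM. The same test called NOTCH1 (9.44, adjusted p = 2.41e-05), NOTCH3 (-4.27, adjusted p = 0.0119) and DLL1 (5.42, adjusted p = 0.0356), whose GIMEN counts were at or near 0, so that these sizes hang on the model's handling of a few counts. NOTCH3 lost its call without GIMEN D30 replicate 1 (-3.6, adjusted p = 0.137), and DLL1 when any 1 of 4 GIMEN libraries was left out. Of 16246 genes, 49.7% were called in this test, 24.5% higher and 25.2% lower; of the 9 members, 4 were higher and 2 lower.

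**Figure D5:**
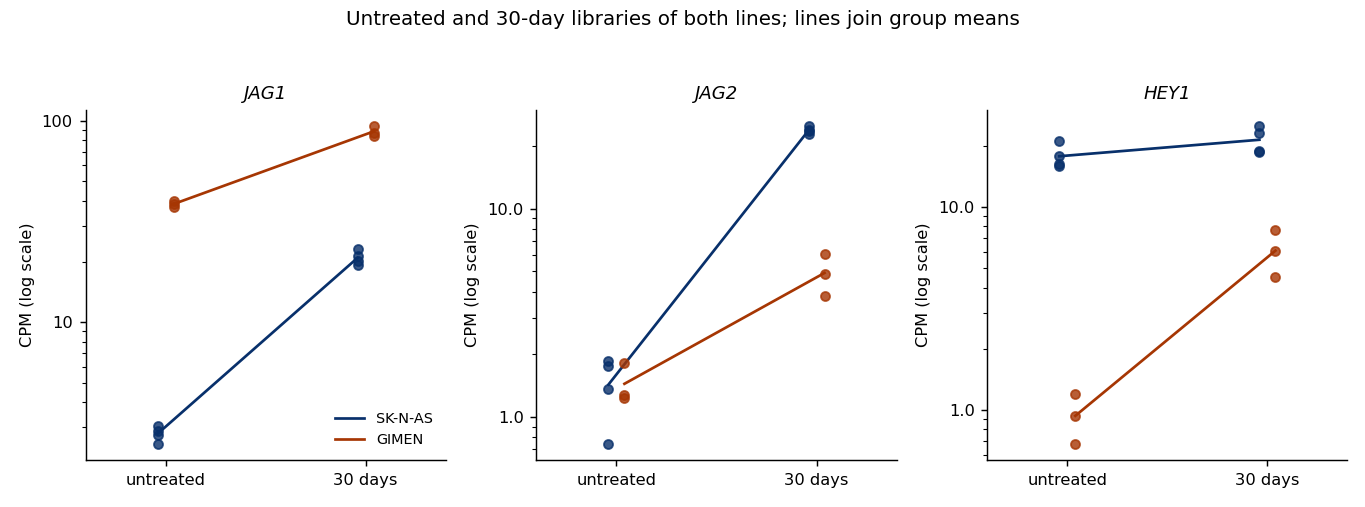
CPM on a log axis is plotted for each untreated and 30-day library of SK-N-AS and GIMEN, for the 3 members that passed the filter in both lines, with lines joining group means. JAG1 and JAG2 climb more steeply in SK-N-AS, and HEY1 climbs in GIMEN from 0.678 to 1.19 CPM up to 4.51 to 7.69 CPM.

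The genes whose levels ran most alike to 3 members over the 22 libraries were read from 10293 genes with a mean of at least 10 CPM, by Pearson's r of log2 CPM. NOTCH3 ran most alike to TLX2 (r = 0.99), MEIS1 (0.986) and FAM69B (0.986), of which TLX2 and MEIS1 are homeobox transcription factors. JAG1 ran most alike to FAM3C (0.981), SLC35A3 (0.98) and SERPINE2 (0.979), and HES1 to ZBTB17 (0.976), GTPBP6 (0.965) and CRKL (0.964). With a prior count of 0.5 in place of 2 on the log scale, TEAD2 took the place of FAM69B and COX19 that of GTPBP6. These are the highest values among many genes, and they rest largely on the gaps between the 6 groups, whose libraries are not independent points.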

How the data were processed

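The deposited table holds raw read counts per gene, which the authors made before deposit, and per the labels' protocols it comes from DNase-treated total RNA and paired-end Illumina libraries. The aligner, counter, strand setting, build and annotation are not given in the sources used here, so that no gene coordinates are taken from the files. Groups follow the labels. The 10 members and all gene lists were chosen with earlier results of these data known. Some marker genes are not reported here.

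Genes were filtered with filterByExpr (minimum count 10, minimum total 15), scaled by TMM and tested with the quasi-likelihood test of edgeR 4.0.16 in R 4.3.3, with Benjamini-Hochberg adjustment over all genes tested and a threshold of 0.05. One model held the 16 SK-N-AS libraries, another the 6 GIMEN libraries, and the last the 14 untreated and 30-day libraries of both lines. The scripts were tested on simulated data. CPM are printed with 1 TMM scaling of all 22 libraries. Levels per kb use exon lengths from GENCODE 29, which may not be the authors' annotation. Libraries held 16456484 to 37506800 counts, and 3 counts a library served as the floor. Other pathway genes were named where they had the 2 largest called rises or falls against the untreated line and a mean of at least 1 CPM. Genes named outside that rule (NOTCH2NL, NRARP, HEYL, HES5, FURIN, APH1A, RBPJ, MAML1, MAML3, TLE2, TLE4, NUMBL, DTX1, and in SK-N-AS also NUMB, HES6 and HES7) were chosen after their values were seen. Alternatives were DESeq2 1.42.0, other scalings and filters, a fold minimum, a replicate block, other sets of libraries and leaving out each library.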

Additional observations from a re-analysis of the deposited data

Results flagged for a closer look

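In 9 of 39 sets of 4 libraries tested, 1 library lay far from the other 3, by a gap to its nearest neighbour that took up most of the range (past the 95% critical value of Dixon's test). Chance gives this in about 1 of 20 sets that are independent and normally distributed. These sets come from the same libraries and some hold few counts, so that rate cannot be used to judge the 9. How often other genes are flagged was not computed. In S2D4, replicate 4 was the library apart for NOTCH2, low at 3.79 CPM (0.83 of the range), for DLL3, high at 124 CPM (0.911), and for HEY1, high at 40.4 CPM (0.907). NOTCH3 was high in untreated replicate 4 at 229 CPM (0.833) and in S1D4 replicate 2 at 66.7 CPM (0.854), where JAG1 was also high at 3.3 CPM (0.838). DLL1 was high in S1D4 replicate 1 at 0.643 CPM (0.835) and in S2D30 replicate 2 at 1.43 CPM (0.833), and DLL3 was high in S2D30 replicate 2 at 24.4 CPM (0.954).

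The 30-day change differed between the lines for 6 members, given as SK-N-AS minus GIMEN on the log2 scale (edgeR interaction term, adjusted p under the threshold). Treatment differed along with line. These differences were 1.67 for JAG1, 2.31 for JAG2 and -2.45 for HEY1, which both lines express. They were 9.44 for NOTCH1, -4.27 for NOTCH3 and 5.42 for DLL1, whose GIMEN counts were at or near 0.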

How the results depend on the processing

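Of the members' log2 fold changes recomputed under the alternatives, 1148 kept direction and side of the threshold, 15 gained and 12 lost a call, and 11 turned direction. All that turned were uncalled in the main analysis, and their cause was not tested. HEY1 from S2D4 to S2D30 was -0.06, with 0.02 under upper-quartile scaling, 0.00 with the replicate block and -0.22 to 0.4 with single libraries left out. JAG2 between untreated lines was 0.07 under upper-quartile scaling and -0.24 to 0.16 with single libraries left out. Leaving out single libraries gave -0.48 to 0.07 for NOTCH2 and -0.4 to 1.14 for DLL1 in S1D4, -0.17 to 0.45 for HEY1 in S2D4, -0.14 to 0.01 for JAG1 from S2D4 to S2D30, and -2.17 to 3.29 for the HES1 difference between lines, the lowest with untreated GIMEN at 0 counts. Replicate numbers were not taken to pair samples: of 27 same-numbered pairs, 5 had a correlation of deviations over 0.1 (-0.106 to 0.314), but 3 of those were among the 4 pairs of untreated and S1D4 (0.309, 0.28 and 0.314, with 0.0327 for replicate 3). A term for replicates 3 and 4 of those groups changed 1 call, DLL1 from S2D4 to S2D30 (1.28, adjusted p = 0.0464, edgeR). With the replicate block DLL1 was called from S2D4 to S2D30 (1.35, adjusted p = 0.044, edgeR) and between untreated lines (2.82, adjusted p = 0.031), and its interaction call was lost (5.23, adjusted p = 0.0585), and it changed no other call of a named gene. The HES1 difference between lines was called by DESeq2 (2.75, adjusted p = 0.00797) and with no filter (2.7, adjusted p = 0.0377). Asking for a log2 fold of at least 1 left, of the other pathway genes, 5 of 18 called in S1D4, 16 of 35 in S2D4, 20 of 37 in S2D30, 12 of 36 from S1D4 to S2D4, 13 of 26 from S2D4 to S2D30, 6 of 30 in GIMEN, 25 of 41 between untreated lines and 13 of 26 in the difference between lines. Over all genes it left 953 of 2786 higher and 989 of 3546 lower in S1D4. S2D4 kept 2096 of 4879 and 2481 of 5097, and S2D30 2807 of 5336 and 3038 of 5771. From S1D4 to S2D4, 1406 of 4470 and 2019 of 4242 were left. From S2D4 to S2D30, 1603 of 3863 and 1506 of 4248 were left. GIMEN kept 1599 of 4792 and 1738 of 4861. Untreated lines kept 3845 of 6271 and 3008 of 5738, and the difference between lines 1970 of 3977 and 2265 of 4092. Upper-quartile scaling moved the all-gene median from 0.05 to 0.2 between untreated lines and from 0.09 to 0.2 between treated lines. Depth limits DLL1, HEY2 and most members in GIMEN.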
